A study of Mus musculus with 6 samples.

Results

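G0s2 and 9 further genes of fat breakdown, lipid droplets and fat cells were followed in RNA of mouse optic nerve, 10 genes of 52636 in the gene table. G0s2 was chosen by its difference in FPKM between the groups in these same libraries, and the other 9 (Pnpla2, Lipe, Plin1, Plin2, Plin3, Plin4, Cidec, Adipoq and Fabp4) were listed by symbol for their known roles, to see whether G0s2 moved with markers of orbital fat. The hND6 against mCherry contrast therefore chose G0s2, and the other 9 were listed with earlier results of these data known. The values of the 10 genes are given as a description without a test. The tissue was sequenced as ribosomal-RNA-depleted total RNA in 6 libraries. In 3 of them, named hND6, the treatment is labelled as mutant human ND6 carrying T14484C. The other 3, named mCherry, are labelled with the name of a red fluorescent protein. The same protocol text stands beside both groups and describes a lentivirus with mutant human ND6 injected into the eyes, so what the mCherry animals received is known only from that label. ND6 is a mitochondrially encoded protein of the first respiratory chain complex. Strain, age and the number of animals behind a library are not given in the sources used here, so p-values measure only how the libraries vary, which can be technical variation.

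Cells keep spare fatty acids as triglyceride in lipid droplets, which are coated by perilipins and related proteins. Release starts with adipose triglyceride lipase, encoded by Pnpla2, and goes on with hormone-sensitive lipase, encoded by Lipe. G0s2, named as a G0/G1 switch gene, encodes a small protein that binds adipose triglyceride lipase and inhibits it. The nerve behind the eye passes through orbital fat, whose cells are marked by adiponectin (Adipoq), the droplet protein Cidec and the fat cell perilipin Plin1.

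The libraries held between 20253600 and 34758900 reads assigned to genes, rounded to the nearest 100. Oligodendrocyte and astrocyte genes were abundant in every library, as the tissue label calls for: the 6 myelin genes summed to 6394 to 7424 FPKM in hND6 and 4478 to 6723 FPKM in mCherry, and the 5 astrocyte genes to 1886 to 2305 FPKM in hND6 and 1332 to 1854 FPKM in mCherry. FPKM is the number of sequenced fragments per length of exon, scaled to a read total of each library. Some libraries stood apart: 6 neuron genes summed to 149 FPKM in hND6 1 and 409 FPKM in mCherry 3, against 21.5 to 41.7 FPKM in the other libraries, and 5 photoreceptor genes summed to 184 FPKM in hND6 2, against at most 5.12 FPKM elsewhere.

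G0s2 is a short gene of 1057 bp on the minus strand of chromosome 1 (193272161 to 193273217 on mm10), inside the span of Lamb3, a laminin gene on the opposite strand. The 250 bases before the RefSeq start of G0s2 are shown with those of Pnpla2, whose product it inhibits, and of Plin2, the droplet coat gene of most cells. They are from RefSeq on GRCm38.p6, read 5′ to 3′ on the strand of each gene, with matches to the searched motifs in capitals.
G0s2, chr1:193273189-193273438, minus strand: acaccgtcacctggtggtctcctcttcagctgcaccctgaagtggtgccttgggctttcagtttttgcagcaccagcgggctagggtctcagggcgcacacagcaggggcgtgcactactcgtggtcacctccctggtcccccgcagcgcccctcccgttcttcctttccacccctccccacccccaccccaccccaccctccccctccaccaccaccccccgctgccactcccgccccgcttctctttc
Pnpla2, chr7:141454938-141455187, plus strand: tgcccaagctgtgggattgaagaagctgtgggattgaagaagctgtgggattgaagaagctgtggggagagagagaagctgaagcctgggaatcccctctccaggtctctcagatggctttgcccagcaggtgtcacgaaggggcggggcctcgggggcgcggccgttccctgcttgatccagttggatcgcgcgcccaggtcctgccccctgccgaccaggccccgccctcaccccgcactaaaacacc
Plin2, chr4:86670060-86670309, minus strand: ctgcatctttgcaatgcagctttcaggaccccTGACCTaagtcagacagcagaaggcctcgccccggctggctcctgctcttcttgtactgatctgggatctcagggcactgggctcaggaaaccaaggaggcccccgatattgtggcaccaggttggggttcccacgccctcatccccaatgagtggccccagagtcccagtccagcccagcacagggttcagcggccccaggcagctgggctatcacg
Searched on both strands were AGGTCA, a half-site of nuclear receptors such as the PPARs, AGAACA, a half-site of the glucocorticoid receptor, ACGTG, the core bound by hypoxia-inducible factors, and TATAAA. None of these letters occurred in the G0s2 or the Pnpla2 window. The Plin2 window held AGGTCA once, on the opposite strand, with its capitals beginning 218 bases before the start. Of 32851 windows of this length 14.0% held AGGTCA, 16.1% AGAACA, 16.6% ACGTG and 12.4% TATAAA. The G0s2 window was 67.2% G and C, against a median of 52.4% over all windows.

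G0s2 stood higher in every hND6 library than in every mCherry library. It had 4.49, 5.34 and 4.89 FPKM in hND6 1 to 3, from 134, 92 and 91 reads. In mCherry 1 to 3 it had 1.93, 1.97 and 1.88 FPKM, from 51, 57 and 42 reads. The groups did not overlap. The means were 4.91 ± 0.424 FPKM across hND6 and 1.93 ± 0.0496 FPKM across mCherry (SD, n = 3 each), a ratio of 2.55 and a difference of 1.15 ± 0.12 (SE) in log2(FPKM + 0.5). Because 0.5 is added, this scale makes changes of low genes look smaller. In bulk tissue, more cells that make a transcript and more transcript per cell cannot be told apart.

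The mCherry values lay closer together than read counting alone allows on average. The counting SD of a single library was 0.388 to 0.557 FPKM in hND6 and 0.261 to 0.289 FPKM in mCherry. Exact Poisson 95% intervals, which cover counting error only, ran from 3.76 to 5.32 FPKM in hND6 1, the lowest hND6 library, and from 1.49 to 2.56 FPKM in mCherry 2, the highest mCherry library. The SD of 0.0496 FPKM should thus not be read as the precision of G0s2 in the mCherry group.

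Short genes as a whole stood higher in hND6. The 760 tested protein-coding genes spanning under 3 kb had a median log2 difference of 0.34, against -0.01 over all 13678 tested protein-coding genes. After the trend against gene span was taken out of every library, the log2 difference of G0s2 was 0.87. On the TPM scale, which has a constant sum per library, it was 1.03, and all genes then had a median of -0.14. Of the libraries with raised neuron or photoreceptor sums, leaving out hND6 1 gave 1.21, hND6 2 1.10 and mCherry 3 1.14. Without mCherry 3 and hND6 2 together it was 1.08.

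**Figure D1:**
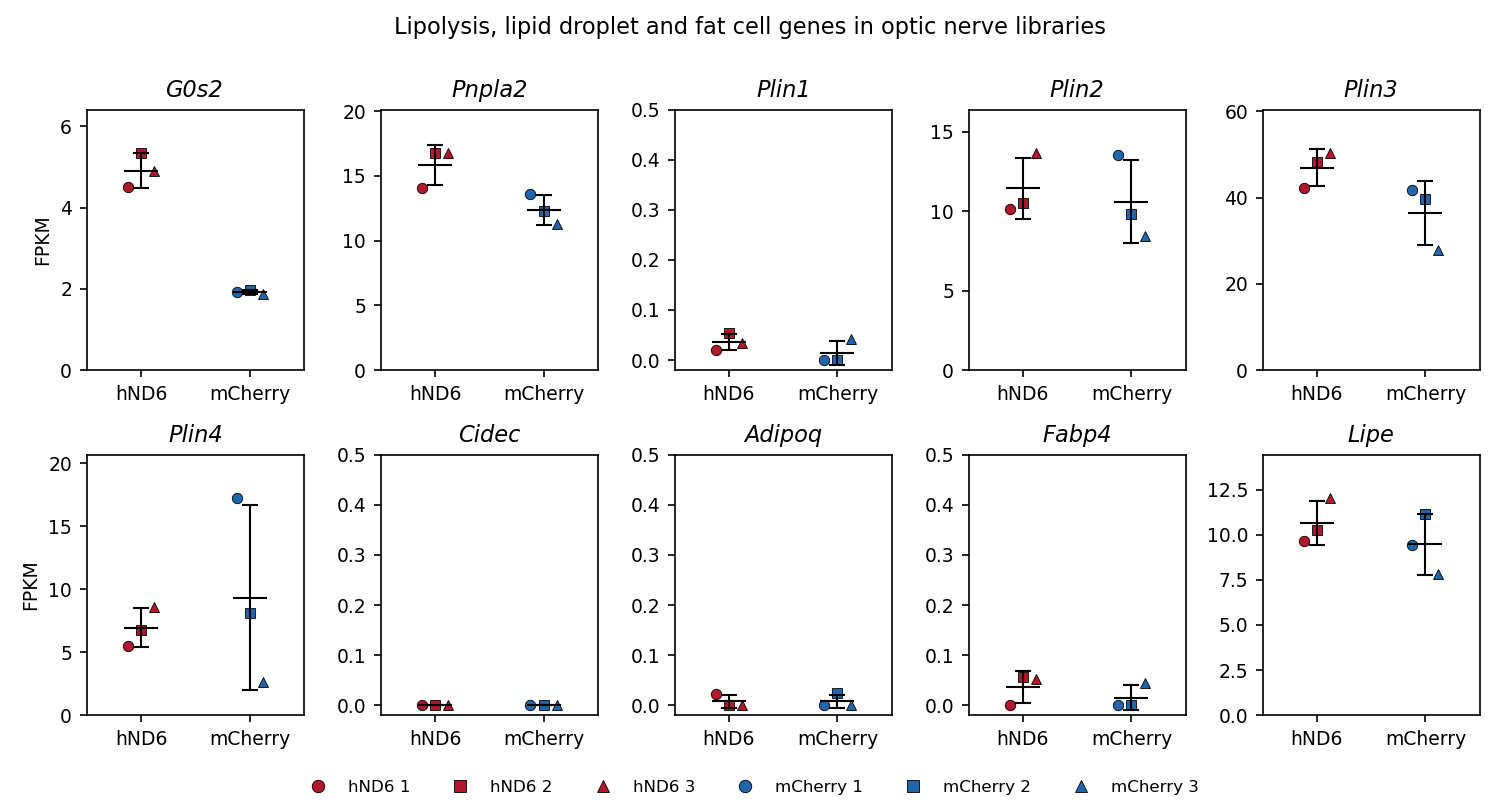
FPKM of the 10 genes in each library, hND6 on the left and mCherry on the right of each panel, with the group mean and SD as bars. G0s2 sits at 4.49 to 5.34 FPKM in hND6 and 1.88 to 1.97 FPKM in mCherry, while Plin1, Cidec, Adipoq and Fabp4 lie at or near 0 in all 6 libraries.

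Markers of fat cells were at or near 0 in both groups. Cidec, which drives droplet fusion in white fat cells, had no read in any library, where a floor of 3 reads corresponds to 0.0509 to 0.0882 FPKM. Adipoq, the fat cell hormone adiponectin, had 1 read in hND6 1, 1 in mCherry 2 and none elsewhere. Plin1, the perilipin of fat cells, had 2, 3 and 2 reads in hND6 1 to 3 and 0, 0 and 3 reads in mCherry 1 to 3. Fabp4, a fatty acid carrier of fat cells, capillary endothelium and macrophages, had 0, 1 and 1 reads in hND6 1 to 3 and 0, 0 and 1 reads in mCherry 1 to 3. Together the 4 genes had 10 reads in hND6 and 5 reads in mCherry, against 317 and 150 reads of G0s2 in the same libraries. None of the 4 overlaps another gene of the table on its strand. Genes nested in a longer gene on their own strand are mostly listed at 0 in this table.

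The 8 further defining fat cell genes were low as well. Leptin (Lep) and the complement factor adipsin (Cfd) were listed at 0 in all 6 libraries. Resistin (Retn), the beta-3 adrenergic receptor (Adrb3), Tusc5 and the brown fat uncoupler Ucp1 stayed under 0.5 FPKM everywhere. Adig had 0.30 to 0.32 FPKM in hND6 and 0.29 to 1.2 FPKM in mCherry, and Car3, a carbonic anhydrase of fat and muscle, had 0.11 to 1.32 FPKM in hND6 and 0.28 to 0.47 FPKM in mCherry. The summed level of the 8 genes was 0.907 to 1.83 FPKM in hND6 and 1.01 to 1.83 FPKM in mCherry, so the ranges overlapped. Skeletal muscle, the other orbital tissue on the list, summed to 3.44 to 4.46 FPKM over 10 genes in hND6 and 3.42 to 6.47 FPKM in mCherry.

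**Figure D2:**
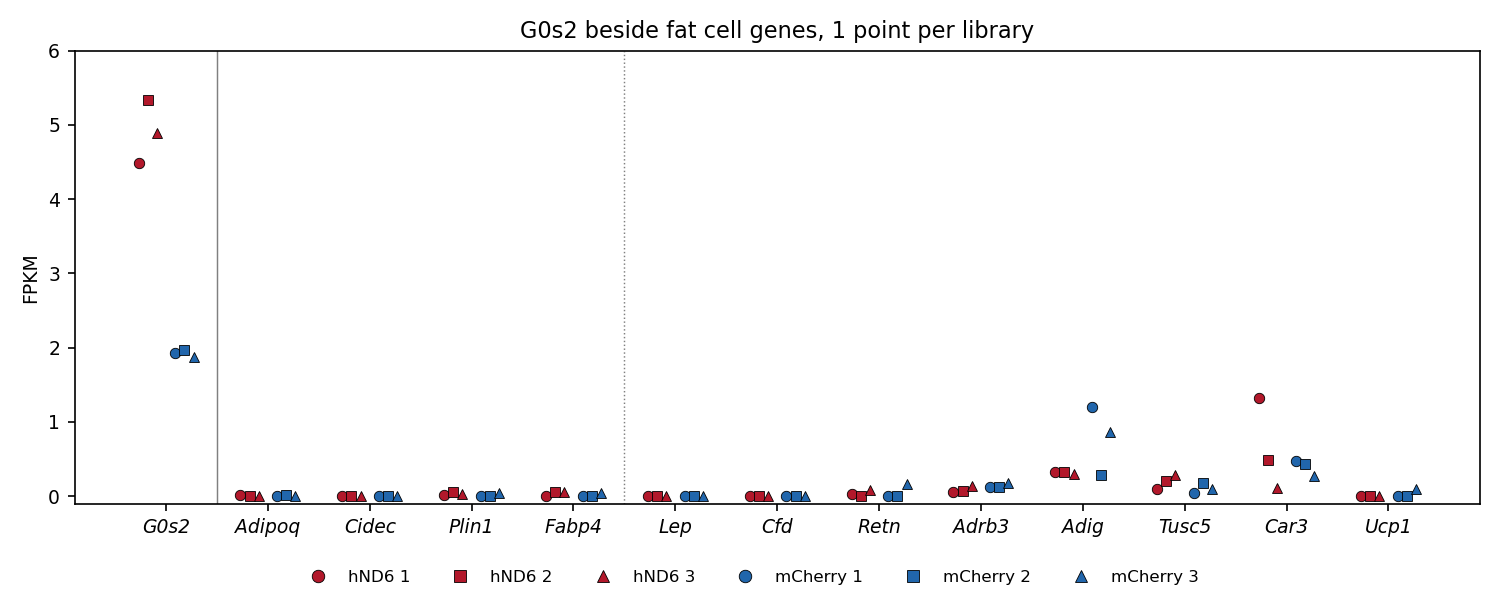
FPKM of G0s2 (left of the solid line), of the 4 listed fat cell genes and of 8 further defining fat cell genes (right of the dotted line), with 1 point per library and hND6 left of mCherry for each gene. No fat cell gene exceeds 1.32 FPKM, and the defining genes do not separate the groups.

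The lipases were well expressed. Pnpla2 (chromosome 7, 141455198 to 141460743), the target of G0s2, had 14.0, 16.7 and 16.8 FPKM in hND6 1 to 3 and 13.6, 12.3 and 11.3 FPKM in mCherry 1 to 3. Its groups did not overlap, but only just, since hND6 1 and mCherry 1 lay 14.0 against 13.6 FPKM. The means were 15.8 ± 1.56 FPKM across hND6 and 12.4 ± 1.15 FPKM across mCherry (SD, n = 3 each), a log2 difference of 0.34, which was 0.20 on the TPM scale and 0.20 with the trend against gene span removed. The RNA level of the inhibitor per RNA level of the lipase, both per length, was 0.32, 0.319 and 0.292 in hND6 1 to 3. In mCherry 1 to 3 it was 0.142, 0.161 and 0.166. The ratio of G0s2 to Pnpla2 thus averaged 0.310 ± 0.0160 in hND6 and 0.156 ± 0.0127 in mCherry (SD, n = 3 each). The groups did not overlap in this ratio, but G0s2 was chosen by its difference between them, so this adds nothing of its own.

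Lipe (chromosome 7, 25379661 to 25398710), whose lipase acts after that of Pnpla2, had 9.67, 10.3 and 12 FPKM in hND6 1 to 3 and 9.41, 11.2 and 7.81 FPKM in mCherry 1 to 3. The groups overlapped, with a log2 difference of 0.17. It was 0.05 without mCherry 3, 0.08 without hND6 3, 0.29 without mCherry 2 and 0.03 on the TPM scale. The span of Lipe lies inside the antisense RNA gene 4732471J01Rik. The sources used here do not state whether reads were counted by strand. Of the genes nested in a longer gene on the opposite strand 47.3% had reads, against 0.362% of those nested in one on their own strand.

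The perilipins that coat droplets outside fat cells differed from one another. Plin3, a coat protein that also circulates in the cytosol, was the most abundant of the 10 genes. It had 42.2, 48.3 and 50.3 FPKM in hND6 1 to 3 and 41.7, 39.8 and 27.9 FPKM in mCherry 1 to 3, a log2 difference of 0.38. Its groups did not overlap, by less than 1 FPKM between hND6 1 and mCherry 1. The lowest value was in mCherry 3, the library with the highest neuron sum. The log2 difference of Plin3 was 0.20 without mCherry 3, 0.17 without mCherry 3 and hND6 2, and 0.23 on the TPM scale.

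Plin2 had 10.2, 10.5 and 13.7 FPKM in hND6 1 to 3 and 13.5, 9.84 and 8.44 FPKM in mCherry 1 to 3. The groups overlapped over most of their range, with a log2 difference of 0.12. It was 0.30 without mCherry 1, 0.20 without hND6 1, 0.08 without mCherry 2, -0.01 without hND6 3, -0.02 without mCherry 3 and -0.02 on the TPM scale. Plin4, a coat protein known from fat and muscle, had 5.46, 6.78 and 8.56 FPKM in hND6 1 to 3 and 17.2, 8.11 and 2.65 FPKM in mCherry 1 to 3. The mCherry libraries spread over more than the whole range of hND6. The log2 difference of -0.10 became 0.49 without mCherry 1, 0.05 without hND6 1, -0.03 without mCherry 2, -0.25 without hND6 3 and -0.75 without mCherry 3, and was -0.24 on the TPM scale. Of 12 glucocorticoid target genes 10 were likewise lowest in mCherry 3 among the mCherry libraries. So were G0s2, Pnpla2, Plin2, Plin3 and Lipe, so this was not particular to Plin4 or to that list. The share of such genes over the whole table was not counted. Plin4 overlaps Hdgfl2 on the opposite strand.

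Of the 10 genes, 6 had a mean of at least 0.5 FPKM and entered the fit. Of these, 3 (G0s2, Pnpla2 and Plin3) stood higher in hND6 with groups that did not overlap, and 3 had overlapping groups. Over all 16157 tested genes 12.6% were higher in this way and 10.2% lower. The contrast chose G0s2, and the others were listed with earlier results of these data known, so nothing is read from this count. In order of mean FPKM over the 6 libraries, a level per length, Plin3 (41.7 FPKM) came first and did not overlap with Pnpla2 (14.1 FPKM). It was followed by Plin2 (11.0 FPKM), Lipe (10.1 FPKM), Plin4 (8.14 FPKM) and G0s2 (3.42 FPKM), where each gene from Pnpla2 down overlapped in range with the next. The other 4 lay at 0.0253 FPKM or less.

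The other genes of lipid handling were tested over all genes with limma, in which 7 of 16157 genes (0.0433%) passed an adjusted p of 0.05 as higher and 0 (0%) as lower, with 1472 higher (9.11%) and 978 lower (6.05%) at an unadjusted p under 0.05. Further regulators and enzymes of lipolysis showed small differences. Of 11 such genes 9 were tested and 0 passed, also 0 at an unadjusted p under 0.05 and 0 with limma's voom on recovered reads. Their median log2 difference was -0.02, beside -0.01 over all tested genes, and it lay above 0, at 0.02 or less, when any single library other than hND6 2 was left out. Abhd5, the coactivator of adipose triglyceride lipase and thus the counterpart of G0s2, stood at 19.9 ± 0.621 FPKM across hND6 and 20.2 ± 2.60 FPKM across mCherry (SD, n = 3 each; limma adjusted p = 0.950). Hilpda, a hypoxia-induced inhibitor of the same lipase, stood at 2.13 ± 0.589 FPKM across hND6 and 2.31 ± 0.481 FPKM in mCherry (limma adjusted p = 0.858). The monoglyceride lipase gene Mgll had a log2 difference of 0.05 (limma adjusted p = 0.907), and Abhd6 one of -0.20 (limma adjusted p = 0.354). Abhd6 was lower in hND6 with groups that did not overlap. Plin5, a perilipin of tissues that burn fat, was not tested, with at most 0.243 FPKM in any library.

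Most genes of droplet formation had small positive differences, and none passed. Of 13 genes 11 were tested and 0 passed in limma (4 at an unadjusted p under 0.05; 0 with voom), 10 had a positive log2 difference and the median was 0.21. Over all 16157 tested genes 7848 had a positive log2 difference. Tmem159, a partner of seipin at sites of droplet formation, stood at 17.4 ± 0.762 FPKM across hND6 and 13.6 ± 0.516 FPKM across mCherry (SD, n = 3 each; limma adjusted p = 0.178). Fitm2, which helps droplets bud from the endoplasmic reticulum, stood at 4.70 ± 0.433 FPKM across hND6 and 3.69 ± 0.00810 FPKM in mCherry (limma adjusted p = 0.284). Its mCherry values, from 443, 485 and 377 reads, lay closer together than read counting alone allows on average. Their SD should thus not be read as precision. Of the relatives of Cidec, Cideb had a log2 difference of 0.64 (limma adjusted p = 0.285) and Cidea one of 0.54 (limma adjusted p = 0.354). On the TPM scale 7 of the 11 lay above 0, with a median of 0.07.

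Triglyceride synthesis did not lean one way: of 13 genes 10 were tested and 0 passed in limma (0 at an unadjusted p under 0.05; 0 with voom), 4 had a positive log2 difference and the median was -0.04, with -0.06 to 0.04 when single libraries were left out. The synthesis enzyme gene Dgat1 had 11.7 ± 0.824 FPKM across hND6 and 13.5 ± 0.983 FPKM across mCherry (SD, n = 3 each; limma adjusted p = 0.383). It was lower in hND6 with groups that did not overlap. The gene of the other such enzyme, Dgat2, had 9.31 ± 1.33 FPKM across hND6 and 10.1 ± 4.60 FPKM in mCherry (limma adjusted p = 0.977). Lpin2 was listed at 0 throughout, but it lies within a longer gene on its strand, so its level is not read.

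Genes of mitochondrial and peroxisomal fatty acid oxidation, where freed fatty acids are burnt, had small positive differences, and none passed. Of 19 genes 18 were tested, all 18 with a positive log2 difference, and 0 passed in limma (8 at an unadjusted p under 0.05; 0 with voom). Their median log2 difference was 0.26, and 10 of the 18 were higher with groups that did not overlap. Of all 16157 tested genes, 7848 had a positive log2 difference and 12.6% were higher with groups that did not overlap. The thiolase gene Acaa2 had 13.4, 13.3 and 12.8 FPKM in hND6 1 to 3 and 8.87, 9.26 and 9.47 FPKM in mCherry 1 to 3 (log2 difference 0.49, limma adjusted p = 0.143). The dehydrogenase genes Hadh (0.37, limma adjusted p = 0.178) and Acadvl (0.30, limma adjusted p = 0.200) also had groups that did not overlap. Cpt1a, which admits long-chain fatty acids to mitochondria, had a log2 difference of 0.28 (limma adjusted p = 0.365). On the TPM scale 14 of the 18 lay above 0 (median 0.12, beside -0.14 over all genes), and without mCherry 3 17 did (median 0.19). Etfb was listed at 0 and lies within a longer gene on its strand.

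**Figure D3:**
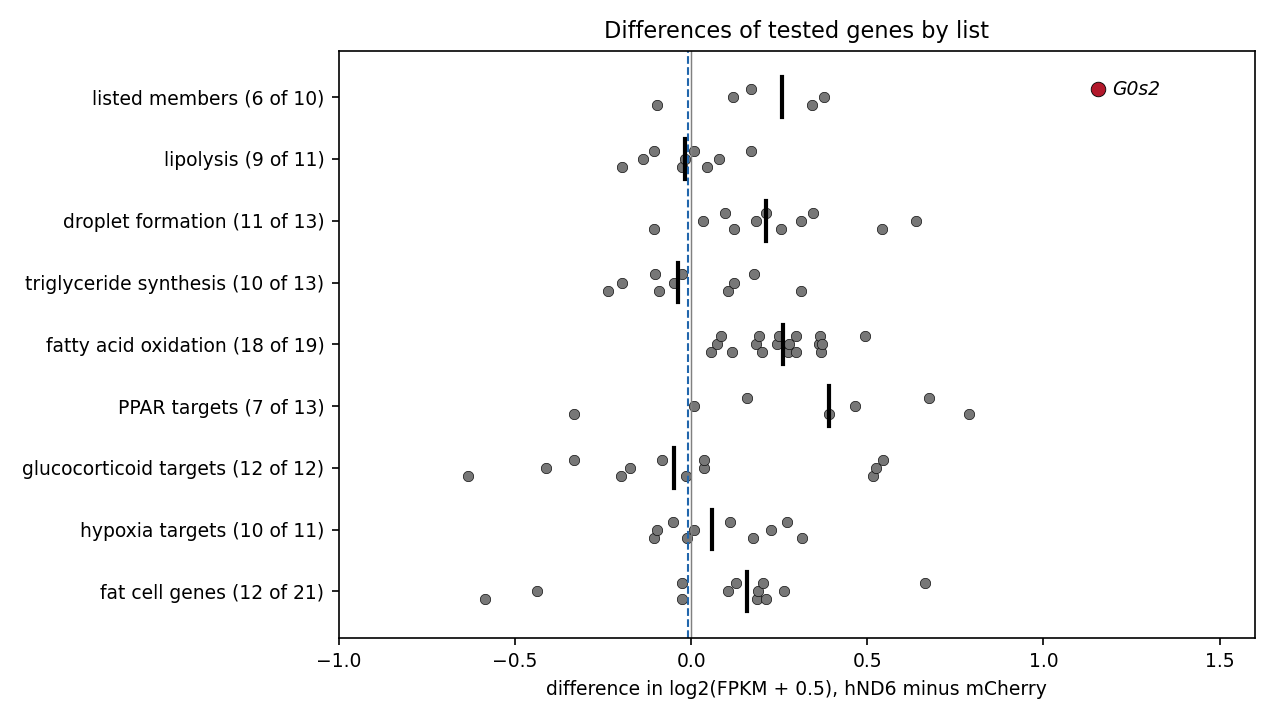
Difference in log2(FPKM + 0.5), hND6 minus mCherry, with 1 point per tested gene and a black bar at the median of each list. Numbers beside the names give how many genes of the list were tested, and the dashed line is the median of all tested genes. G0s2, in red at 1.15, lies to the right of every other gene shown, the next being Vnn1 at 0.79. G0s2 was chosen by its difference between the groups, so its place adds nothing of its own.

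G0s2 is known as a target of PPAR receptors and is induced by several hormones, and 3 lists of response genes were laid beside it. Of 13 PPAR target genes 7 were tested and 0 passed in limma (4 at an unadjusted p under 0.05; 0 with voom), with a median log2 difference of 0.39. Higher in hND6 with groups that did not overlap were the pantetheinase gene Vnn1 (0.79, limma adjusted p = 0.298) and the thioesterase genes Acot2 (0.68, limma adjusted p = 0.202) and Acot1 (0.46, limma adjusted p = 0.195). Acot1 and Acot2 are near-identical copies whose reads may be split between them. Angptl4, an inhibitor of lipoprotein lipase, had a log2 difference of 0.01 and Pdk4, a kinase that spares glucose, one of -0.33 with values of 8.33 to 13.4 FPKM in hND6 and 4.77 to 23.7 FPKM in mCherry. Cpt1b, Cyp4a10, Cyp4a14 and Fgf21 were listed at 0 in all 6 libraries.

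Of 12 glucocorticoid target genes all 12 were tested and 0 passed in limma (1 at an unadjusted p under 0.05; 0 with voom), with a median log2 difference of -0.05. That median changed sign with the libraries used: it was -0.26 without mCherry 3, -0.10 without hND6 3, 0.01 without hND6 1, 0.04 without mCherry 1 and 0.10 without mCherry 2. The metallothionein gene Mt1, with groups that did not overlap, had a log2 difference of 0.53 (limma adjusted p = 0.317). Fkbp5, a chaperone that glucocorticoids induce strongly, had one of -0.20 (limma adjusted p = 0.801). Of 11 hypoxia target genes 10 were tested and 0 passed in limma (0 at an unadjusted p under 0.05; 0 with voom), with overlapping groups for all 10. Their median was 0.06, with -0.03 without mCherry 2 and 0.19 without hND6 1 as the lowest and highest when single libraries were left out. Ndrg1 (0.31, limma adjusted p = 0.459) and Slc2a1, the glucose transporter of the blood-brain barrier (0.17, limma adjusted p = 0.619), were the most abundant of them.

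Several genes that fat cells share with other cells were expressed, while the defining ones were low. Of the 21 genes of the full fat cell list 12 were tested and 0 passed in limma (1 at an unadjusted p under 0.05; 0 with voom), with a median log2 difference of 0.16. It was 0.34 without mCherry 1, 0.07 without mCherry 3, and 0.06 without hND6 1 or without hND6 3. The desaturase gene Scd1, which myelinating cells also use, had 149 ± 7.81 FPKM across hND6 and 126 ± 27.0 FPKM across mCherry (SD, n = 3 each; limma adjusted p = 0.511). Fasn, the fatty acid synthase gene, had a log2 difference of 0.20 (limma adjusted p = 0.411). Thrsp, a regulator of lipid synthesis, had 7.32, 7.25 and 7.66 FPKM in hND6 1 to 3 and 3.59, 4.68 and 5.36 FPKM in mCherry 1 to 3, and it was the only one of the 12 whose groups did not overlap (0.67, limma adjusted p = 0.178). Aqp7 and Pck1, which mark fat cell glycerol metabolism, were at no more than 0.0521 FPKM for Aqp7 and listed at 0 for Pck1.

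Transcripts of blood and antibody-producing cells separated the groups as G0s2 did. The 5 red cell genes summed to 1363, 2602 and 1790 FPKM in hND6 1 to 3 and to 467, 179 and 365 FPKM in mCherry 1 to 3, all 5 with groups that did not overlap and 0 past the threshold in limma (5 at an unadjusted p under 0.05; 0 with voom). Over all tested genes 12.6% were higher with groups that did not overlap. The 7 plasma cell genes summed to 162, 138 and 383 FPKM in hND6 1 to 3 and to 18.0, 8.45 and 8 FPKM in mCherry 1 to 3, and 4 of the 7 passed in limma. Of the 7, 0 passed with voom, with no filter on low values, without hND6 1, without mCherry 1, without mCherry 2, or without mCherry 3 and hND6 2 together, and 1 passed without hND6 2. All 7 had a positive log2 difference each time. G0s2 and the red cell sum had the same order within hND6, with hND6 2 highest and hND6 1 lowest. In mCherry, G0s2 was highest in mCherry 2, which had the lowest red cell sum. The Poisson intervals of G0s2 overlapped among the libraries of each group, so nothing is read from these orders. The 5 astrocyte genes, with 1886 FPKM in the lowest hND6 library and 1854 FPKM in the highest mCherry library, also had sums that did not overlap. The part of blood, plasma cells or astrocytes in the G0s2 difference was not tested.

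The sums of the following cell types overlapped between the groups. The 8 neutrophil genes summed to 5.63 to 27.4 FPKM in hND6 and 10.9 to 18.5 FPKM in mCherry, with the lowest sum in hND6 3. The 12 endothelial genes summed to 75.4 to 93.1 FPKM in hND6 and 85.8 to 93.0 FPKM in mCherry, the 6 macrophage genes to 15.2 to 22.4 FPKM in hND6 and 12.7 to 28.3 FPKM in mCherry, and the 8 fibroblast genes to 239 to 272 FPKM in hND6 and 165 to 271 FPKM in mCherry. Microglia genes summed to 332 to 386 FPKM in hND6 and 230 to 352 FPKM in mCherry, with 5 of 10 higher in groups that did not overlap and 0 past the threshold in limma (5 at an unadjusted p under 0.05; 0 with voom). The share higher in this way over all tested genes was 12.6%. The 6 genes of lipid-secreting glands summed to 4.22 to 5.09 FPKM in hND6 and 4.29 to 7.08 FPKM in mCherry, with Awat1 at 0 throughout, and the 5 pigment cell genes to at most 0.963 FPKM in hND6 and 1.27 FPKM in mCherry.

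**Figure D4:**
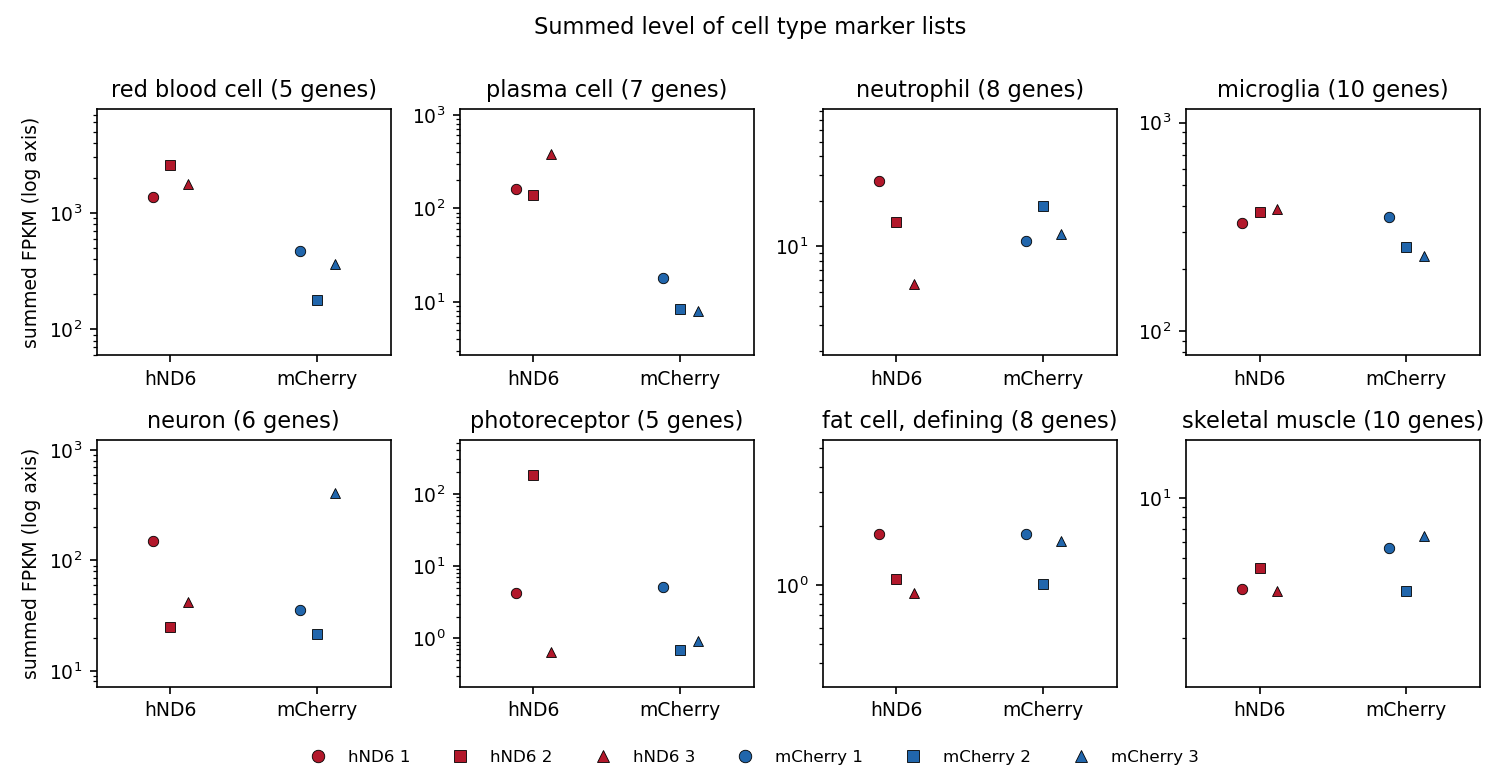
Summed FPKM of 8 marker lists in each library on a log axis, hND6 on the left and mCherry on the right of each panel. Of these 8 lists the red cell and plasma cell sums separate the groups, neuron genes are high in hND6 1 and mCherry 3, photoreceptor genes in hND6 2, and the defining fat cell genes overlap at 0.907 to 1.83 FPKM.

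Tested protein-coding genes were ranked by likeness to G0s2 over the 6 libraries, as the root mean square difference of mean-centred log2(FPKM + 0.5). Predicted genes and those with only a clone name were left out. The 5 most alike were Tubb1 (0.183), Id3 (0.190), Large2 (0.191), Id1 (0.196) and Gstp1 (0.203). By the same measure the nearest of the other listed genes was Pnpla2 at 0.413, and Plin4 was farthest at 0.960. Tubb1, the beta-tubulin of platelets, had 0.852, 1.04 and 1.13 FPKM in hND6 1 to 3 and 0.422, 0.150 and 0.194 FPKM in mCherry 1 to 3. Large2 had 0.146 to 0.306 FPKM in mCherry. Both genes thus reached the mean of 0.5 FPKM needed for testing only through their hND6 values. Id1, an inhibitor of basic helix-loop-helix factors, had 34.0, 38.1 and 42.7 FPKM in hND6 1 to 3 and 23.8, 19.8 and 17.1 FPKM in mCherry 1 to 3. These genes were found by their likeness to G0s2, so their separation of the groups adds nothing of its own.

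The protein-coding genes nearest to G0s2 are Lamb3, Hsd11b1 and Camk1g, each with overlapping groups. Lamb3, which spans it on the opposite strand, had 0.356 to 0.499 FPKM in hND6 and 0.481 to 0.533 FPKM in mCherry. The nearest protein-coding gene at lower coordinates, Hsd11b1, which encodes an enzyme that activates glucocorticoids, had 0.467 to 0.774 FPKM in hND6 and 0.242 to 1.03 FPKM in mCherry. Camk1g, the nearest at higher coordinates, had 0.246 to 0.722 FPKM in hND6 and 0.354 to 2.24 FPKM in mCherry, with its highest value in mCherry 3. Of the next genes out, Traf3ip3 had 1.93 to 2.47 FPKM in hND6 and 1.78 to 2.70 FPKM in mCherry. Plxna2, a plexin gene 1346608 bp away at higher coordinates, had 15.1 to 19.5 FPKM in hND6 and 19.9 to 24.8 FPKM in mCherry, lower in hND6 with groups that did not overlap.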

How the data were processed

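Total RNA of optic nerve was sequenced in 3 hND6 and 3 mCherry libraries. The authors deposited FPKM values per gene, per the labels, with gene spans and exon lengths on mm10. Tools listed in the submitters' processing notes, with no roles given, are STAR, HTSeq, Trim Galore and CASAVA 1.4. The 6 single tables equalled the combined one. FPKM times exon length came in whole multiples of 1 read (tolerance 0.1 read) in all libraries, so reads were recovered. Groups were compared with limma 3.58.1 (R 4.3.3, intensity trend, Benjamini-Hochberg) on log2(FPKM + 0.5) for 16157 genes, those averaging 0.5 FPKM or more. The fit was tested on simulated data. A floor is 3 reads per library. Alternatives were pseudocounts, filters, scalings, variance models, voom, gene span trend, replicate block and left-out libraries. The members, the 23 other lists and the rule for named genes (in each list the 2 most abundant, the 3 of smallest p, those past the threshold and those at 0, shown here in part, with the 5 genes most like G0s2 and its neighbours) were chosen with earlier results of these data known. Further genes named from the lists for their roles were chosen after their values were seen. Of 222 symbols 220 matched, and the 2 others are older names of genes also listed.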

Additional observations from a re-analysis of the deposited data

How the results depend on the processing

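The log2 difference of G0s2 was positive under all 19 alternatives, from 0.87 to 1.33 beside 1.15. It was 1.30 with a pseudocount of 0.1, 1.01 with a pseudocount of 1, 1.03 on the TPM scale, 1.33 with voom on recovered reads and 0.87 with the gene span trend removed. Leaving out single libraries gave 1.10 to 1.21. The count of listed genes past the threshold is no test, since the contrast chose G0s2, and nothing is read from it: it was 0, with 1 without a variance trend and 0 to 1 when single libraries were left out (1, G0s2, without mCherry 3). The count of all genes passing as higher was 7. It was 1 with no filter, 0 with the replicate block (0 of the plasma cell genes) and 0 with voom. Without mCherry 3 and hND6 2 together, a setting chosen after the data were seen, it was 0. With single libraries left out it ran from 0 (without mCherry 2) to 116 (without mCherry 3). Genes at an unadjusted p under 0.05, higher and lower together, numbered 2450 in the main fit. That total was 1789 with the replicate block, 2462 with voom and 2449 without mCherry 3 and hND6 2. The count passing as lower was 0 in limma and 0 to 15 with single libraries left out, 15 without mCherry 3. Same-numbered libraries deviated from their group means with correlations of -0.42, 0.36 and -0.20 across genes. The main fit did not pair libraries by number, though such correlations cannot exclude a pairing. The sign of the log2 difference of Plin2 and Plin4 depended on the setting (-0.02 to 0.30 and -0.75 to 0.49), and that of Pnpla2, Plin3 and Lipe did not. Depth limits the genes near 0: 3 reads of Cidec correspond to 0.0509 to 0.0882 FPKM.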
